A study of Pseudotaxus chienii and Amentotaxus argotaenia and Torreya grandis with 9 samples.

Results

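Described here are 90 gene-level features, out of 88609 in all, from 9 RNA-seq libraries of 3 yew-family species. Each stood at 200 TPM or more in every library. TPM corrects for transcript length and gives all libraries a common total, so levels of different features can be set side by side. The rule also left out features whose highest library was under 1.5 times the lowest, which removed 1 of the 91 features that met the limit of 200 TPM. The members were chosen by their level in all 9 libraries, so the levels, shares and ranks of the members are a description.

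The libraries came from fresh twigs, of wood and needles, from plants aged 3 years that were kept under the same stated temperature, light cycle and humidity. Pseudotaxus chienii carries the label taxol-producing, while Torreya grandis and Amentotaxus argotaenia carry the label non-producing. Each species has 3 libraries, and the labels do not say whether these are separate trees. A p-value here therefore sets a difference between species only against the spread between these libraries, and that spread may be technical. With a single producing species, the phenotype and the species cannot be told apart. All values refer to a single list of gene-level features from a Trinity de novo assembly. The files pair these IDs with neither gene names nor sequences, so no member is given a gene name or role and no sequence is printed.

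As background, the RNA of a green shoot is shared very unequally among genes. In conifer needles and young stems, as in leaves of other seed plants, transcripts for the photosynthetic machinery, such as the small subunit of Rubisco and the chlorophyll a/b-binding proteins, are typically among the most abundant, together with transcripts for ribosomal proteins, translation factors and small stress proteins such as metallothioneins. Many of these belong to gene families with several nearly identical copies. Trinity groups overlapping sequences into a component, the ID without its gene number, and splits each component into gene-level features. A transcript that is similar enough between species can be quantified on 1 feature in all of them, while a more diverged transcript is split over several features, each carrying the reads of its own species. Which of the members belong to any of these families was not tested.

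Every library summed to between 999890 and 999947 TPM, and since TPM keeps no depth, how many reads lie behind a value is unknown. In each species 1 library stood apart. Over all features, Pearson's r of log2 levels was 0.900 and 0.911 for P. chienii replicate 1 with the others, against 0.955 between these others. A. argotaenia replicate 2 stood at 0.879 and 0.892 against 0.947, and T. grandis replicate 3 at 0.890 and 0.908 against 0.940. The share of TPM and the counts of called members are also given without them, as are the named differences that lost their call.

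The 90 members held between 8.36% and 14.3% of all transcript signal in a library. In P. chienii their share of the TPM was 9.75%, 10.9% and 10.6% in replicates 1, 2 and 3. The A. argotaenia libraries gave 14.3%, 10.04% and 9.65%, and those of T. grandis 8.66%, 10.7% and 8.36%. The species means were 10.4% ± 0.594 (SD, n = 3), 11.3% ± 2.59 and 9.24% ± 1.28, and the libraries of the species overlapped. Without the 3 libraries that stood apart the means were 10.8%, 12.0% and 9.69%.

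The members are a minority of the abundant features of any species. P. chienii had 481 features at 200 TPM or more in all 3 of its libraries, A. argotaenia 402 and T. grandis 581, and the members made up 18.7%, 22.4% and 15.5% of these. The most abundant member of a library ranked between place 3 and place 8 among all features of that library. The median member ranked between 114 and 159.5, and between 31 and 41 members were among the 100 most abundant features of a library. The features above the members in each library therefore did not reach the limit in all 9 libraries.

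**Figure D1:**
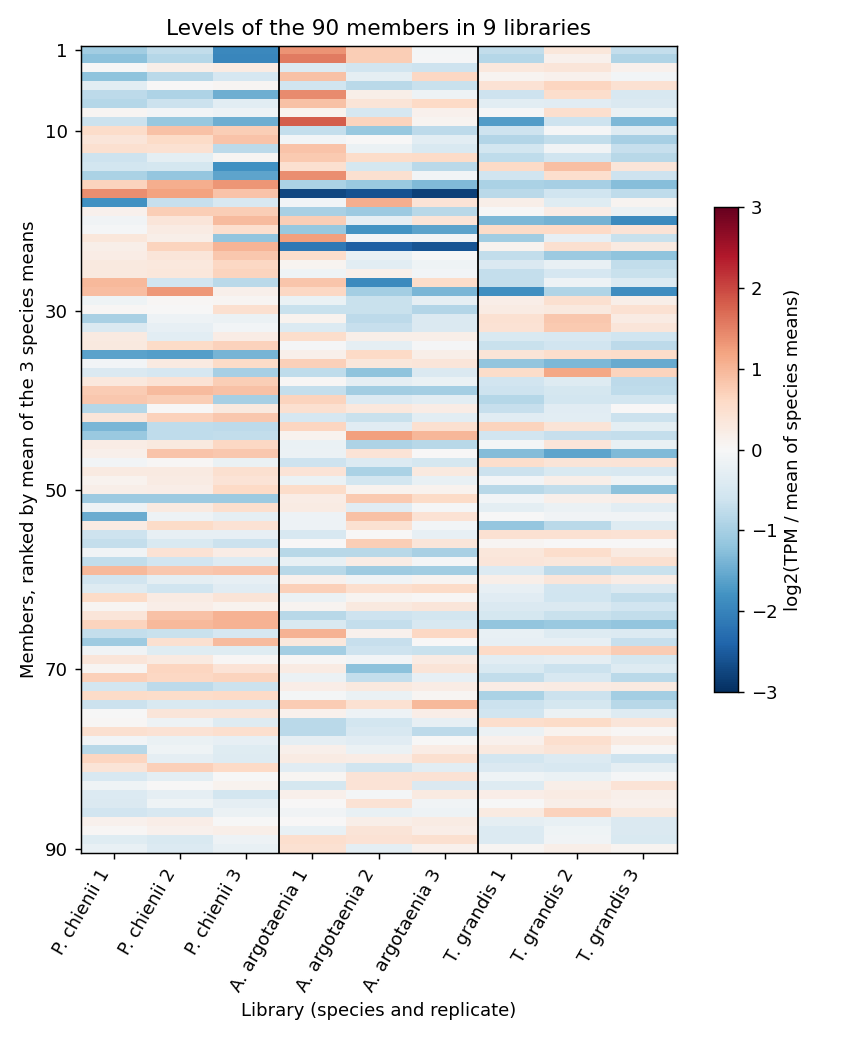
Level of each of the 90 members (rows, ranked from the highest to the lowest mean of the 3 species means) in each of the 9 libraries (columns, 3 per species), as log2 of the TPM over that mean. Most rows are pale, and the darkest cells are the 3 A. argotaenia libraries at 2 members in the upper part, which stood between 268 and 371 TPM there.

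Levels within the set were uneven. The mean of the 3 species means was 1000 TPM or more for 36 members and under 500 TPM for 24. In 12 members every library stood at 1000 TPM or more. The 10 most abundant members of a library held 33.0% ± 0.957 of the members' TPM in P. chienii (SD, n = 3), with 37.4% ± 2.99 in T. grandis and 43.7% ± 7.17 in A. argotaenia. The highest library of a member was a median of 2.98 times its lowest, at least 4 times in 29 members and at least 10 times in 4.

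TRINITY_DN35790_c0_g1 had the highest mean of the set. Its P. chienii libraries stood at 2804, 3475 and 1521 TPM, those of A. argotaenia at 14774, 9653 and 5532 TPM and those of T. grandis at 3473, 7354 and 3535 TPM. The A. argotaenia libraries were all above those of P. chienii, while those of T. grandis overlapped with both. Among all features it ranked 5 in A. argotaenia, 7 in T. grandis and 19 in P. chienii.

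TRINITY_DN53707_c4_g1 came next and had a closely similar profile, with P. chienii at 2247, 2880 and 1362 TPM, A. argotaenia at 15461, 8682 and 5144 TPM and T. grandis at 2904, 5707 and 2825 TPM. The third by mean, TRINITY_DN39684_c2_g1, was much steadier. P. chienii had 4097, 4653 and 4904 TPM, A. argotaenia had 3096, 2783 and 2678 TPM, and T. grandis had 5105, 5274 and 4470 TPM. It was the most abundant member in P. chienii and T. grandis and the ninth in A. argotaenia, where all libraries were below those of the other species.

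At the limits of the rule, TRINITY_DN41480_c0_g2 was just inside 200 TPM, with 200.47 TPM in its lowest library, T. grandis replicate 3, and 613 TPM in its highest, P. chienii replicate 3. TRINITY_DN48402_c0_g1 was just outside it, with 198 TPM in A. argotaenia replicate 2 and 311 TPM in its highest library. For the ratio, TRINITY_DN47215_c0_g1 was just inside, between 223 and 357 TPM or 1.60-fold. TRINITY_DN43052_c0_g2, between 334 and 423 TPM or 1.26-fold, was the single feature left out.

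The order of the members was nearly the same in libraries of a species and differed between species. Over the 90 members, Spearman's rho between libraries of a species averaged 0.966 in T. grandis, 0.911 in P. chienii and 0.901 in A. argotaenia, each over 3 pairs. Between species means it was 0.590 for P. chienii and A. argotaenia, 0.637 for P. chienii and T. grandis and 0.662 for A. argotaenia and T. grandis. Single libraries of different species gave between 0.479 and 0.676. These values run across members, which share libraries and are no replicates, and the rule cuts off all lower levels, which limits the range they cover.

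Few members were at the top everywhere. Of the 20 most abundant members of each species, 7 were shared by all 3, and of the 10 most abundant, 2 were shared. TRINITY_DN43235_c0_g2 moved most between P. chienii and A. argotaenia, from rank 2 to rank 85 among the members. TRINITY_DN49017_c0_g1 moved most between A. argotaenia and T. grandis, from rank 81 to rank 10. TRINITY_DN50167_c1_g2 moved most between P. chienii and T. grandis, from rank 74 to rank 20. The median shift was 12 ranks for P. chienii and A. argotaenia, 16 for P. chienii and T. grandis and 13 for A. argotaenia and T. grandis.

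**Figure D2:**
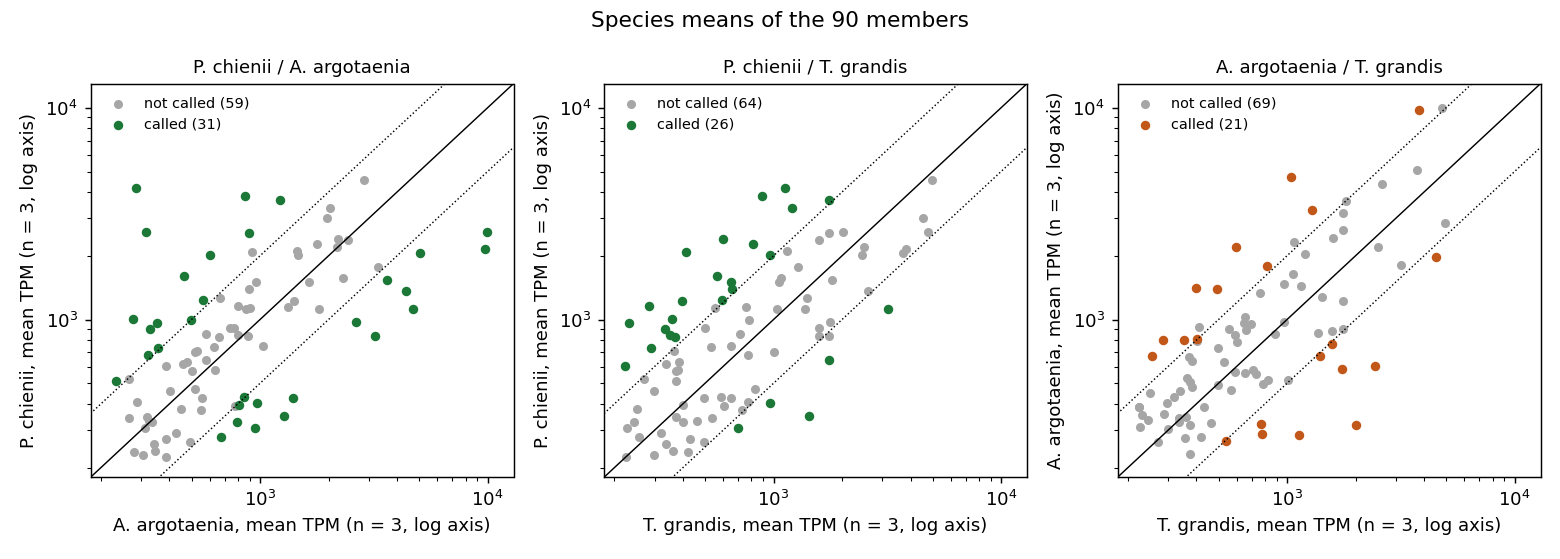
Mean TPM of the 90 members (points, n = 3 libraries per species, log axes) in each pair of species, with equality as a solid line and 2-fold differences as dotted lines. Coloured points are members called different by limma, which compares mean log levels, with 31, 26 and 21 called; most grey points lie between the dotted lines.

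Differences between species were tested for all features in 1 limma fit on log2(TPM + 1), and a call needed 2-fold or more with an adjusted p under 0.05. All 90 members passed the filter of 1 TPM in 3 libraries. Since the rule read these same values, and only features that are high everywhere can be members, the counts are set beside those over all features and support nothing by themselves. In bulk tissue, fewer cells of a type and less RNA per cell cannot be told apart. In all, 51 members were called in at least 1 comparison, and the other 39 were under 2-fold in all 3. The same count over all tested features was not made, so nothing is read from these numbers.

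Between P. chienii and A. argotaenia, the labelled producer stood against a non-producer. Of the 90 members 31 were called, or 34.4%, where 62.6% of all 75926 tested features were called. Of the 90 members, 15 were called higher in P. chienii and 16 lower, where 29.4% and 33.2% of all tested features were. The median log2 fold change over the members was 0.14, and the median size was 0.59. After trimmed-mean scaling 10 were higher and 19 lower with a median of -0.02, and after quantile normalization 11 were higher and 18 lower with a median of 0.01. More were lower than higher under each of these scalings, by a margin that depends on the scaling. With only the species compared in the fit, 15 were higher and 8 lower, so the balance turned. The libraries of the pair did not overlap in 55 members, 61.1% of them, where this held for 69.2% of all tested features. Among features whose lowest library lay between 50 and 200 TPM the share was 67.6%. It was 67.2% between 1 and 10 TPM and 68.2% between 10 and 50 TPM. Of the 90 members, P. chienii was the higher without overlap in 30 and the lower in 25, where this held for 32.8% and 36.4% of all tested features.

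TRINITY_DN43235_c0_g2 had the largest difference of the set. P. chienii had 4866, 4310 and 3344 TPM and A. argotaenia 281, 302 and 268 TPM. The log2 fold change was 3.86 ± 0.16 (SE; adjusted p = 1.74e-07, limma), and T. grandis lay in between at 1067, 1226 and 1093 TPM. The component of this feature gave the opposite picture. In A. argotaenia TRINITY_DN43235_c0_g3, which is no member and was named with its values known, stood at 11173 ± 3217 TPM (SD, n = 3) and held 97.4% of the component, whereas TRINITY_DN43235_c0_g2 held 98.5% of it in P. chienii and 82.6% in T. grandis. Summed over the component, the log2 fold change was -1.42 ± 0.26 (SE; adjusted p = 0.00123, limma), so the component as a whole was lower in P. chienii.

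TRINITY_DN49017_c0_g1 rose as well, at 1871, 2622 and 3314 TPM in P. chienii against 371, 303 and 274 TPM in A. argotaenia. The log2 fold change was 3.01 ± 0.23 (SE; adjusted p = 4.21e-06, limma). Here the component moved the same way, since the member held 90.4% of it in P. chienii and 98.0% in A. argotaenia, and its component sum gave 3.15 ± 0.19 (SE). T. grandis, at 1773, 2315 and 1969 TPM, overlapped with P. chienii.

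The largest falls were those of TRINITY_DN53707_c4_g1 and TRINITY_DN52093_c0_g2, which ranked 2 and 4 among the members in A. argotaenia. TRINITY_DN53707_c4_g1, whose levels are given above, differed by -2.10 ± 0.47 on the log2 scale (SE; adjusted p = 0.00349, limma). TRINITY_DN52093_c0_g2 had 1474, 1041 and 833 TPM in P. chienii, while A. argotaenia had 8032, 3654 and 2437 TPM. For this one limma gave -1.93 ± 0.46 on the log2 scale (SE; adjusted p = 0.00493). Neither pair of groups overlapped. These members also varied widely within A. argotaenia, and with only the 2 species compared in the fit the adjusted p was 0.107 and 0.0504, past the threshold. As component sums, TRINITY_DN53707_c4 gave -1.25 ± 0.50 (SE; adjusted p = 0.0568, limma) and TRINITY_DN52093_c0 gave -1.89 ± 0.46 (SE; adjusted p = 0.00648, limma).

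The same P. chienii libraries were also compared with T. grandis, the other tree labelled non-producing. Of the members 26 were called, or 28.9%, against 56.1% of all tested features. Of the 90 members, 21 were called higher in P. chienii and 5 lower, where 29.9% and 26.1% of all tested features were. Among the 42560 features called over all, 22734 were higher and 19826 lower. With trimmed-mean scaling the split was 18 higher and 8 lower, and with quantile normalization 19 and 10. The libraries did not overlap in 65 members or 72.2%, against 63.4% of all tested features. Among features whose lowest library lay between 50 and 200 TPM the share was 75.8%. It was 66.2% between 1 and 10 TPM and 71.7% between 10 and 50 TPM. Of the 90 members, P. chienii was the higher without overlap in 35 and the lower in 30, where this held for 33.4% and 30% of all tested features. The median size of the log2 fold change over the members was 0.73. Most of the called members thus stood higher in P. chienii under each of these scalings.

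TRINITY_DN53707_c4_g3 rose most, from 316, 610 and 311 TPM in T. grandis to 2167, 2817 and 1255 TPM in P. chienii. Its log2 fold change was 2.33 ± 0.55 (SE; adjusted p = 0.00531, limma), and without the 3 libraries that stood apart it was 2.10 ± 0.83 (SE; adjusted p = 0.0930, limma). The component sum differed by 0.02 ± 0.50 (SE) on the log2 scale, while the other member of this component, TRINITY_DN53707_c4_g1, had a difference of -0.80 that was not called. TRINITY_DN49811_c0_g1 also rose, from 959, 941 and 764 TPM in T. grandis to 2938, 3940 and 4645 TPM in P. chienii, by 2.09 ± 0.20 (SE; adjusted p = 2.02e-05, limma). It held 98.7% or more of its component in each species. In A. argotaenia it stood at 970, 864 and 739 TPM, so all 3 P. chienii libraries were above the other 6.

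TRINITY_DN50167_c1_g2 was lower in P. chienii, at 334, 326 and 388 TPM against 1340, 1464 and 1489 TPM in T. grandis. The log2 fold change was -2.03 ± 0.15 (SE; adjusted p = 4.29e-06, limma). In P. chienii this member held 34.8% of its component and TRINITY_DN50167_c1_g1 held 64.6%. The latter is no member and was named with its values known. In T. grandis the member held 99.0%, and the component sum differed by -0.52 ± 0.16 (SE) on the log2 scale, under 2-fold. TRINITY_DN36675_c0_g1 fell from 3076, 3828 and 2622 TPM in T. grandis to 1385, 1407 and 578 TPM in P. chienii, by 1.59 ± 0.43 (SE; adjusted p = 0.0108, limma) on the log2 scale, and so did its component.

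The non-producing trees, A. argotaenia and T. grandis, were compared with each other. The test called 21, or 23.3%, against 47.5% of all tested features. Of the 90 members, 11 were called higher in A. argotaenia and 10 lower, where 27.5% and 20% of all tested features were. Trimmed-mean scaling gave 13 higher and 7 lower, and quantile normalization 15 and 8, so the near balance depends on the scaling. The libraries did not overlap in 56 members or 62.2%, against 55.2% of all tested features. Among features whose lowest library lay between 50 and 200 TPM the share was 70.9%. It was 59.6% between 1 and 10 TPM and 67.4% between 10 and 50 TPM. Of the 90 members, A. argotaenia was the higher without overlap in 32 and the lower in 24, where this held for 31.2% and 24.1% of all tested features. That the count was lower than for the pairs with P. chienii was not tested.

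TRINITY_DN52093_c0_g2, given above, was higher in A. argotaenia than in T. grandis, where it stood at 721, 1495 and 895 TPM. The log2 fold change was 2.07 ± 0.46 (SE; adjusted p = 0.00451, limma), with an adjusted p of 0.0585 by limma without the 3 libraries that stood apart. TRINITY_DN39005_c0_g2 had 2898, 1438 and 2262 TPM in A. argotaenia, all above the 686, 646 and 461 TPM of T. grandis. The difference was 1.84 ± 0.34 on the log2 scale (SE; adjusted p = 0.00154, limma). Its component sum differed by 0.47 ± 0.34 (SE) on the log2 scale and was not called.

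TRINITY_DN49017_c0_g1 was the largest fall in A. argotaenia against T. grandis, by 2.67 ± 0.23 (SE; adjusted p = 1.42e-05, limma) on the log2 scale. TRINITY_DN38987_c1_g1, the single feature of its component, had 766, 486 and 557 TPM in A. argotaenia, against 2515, 2554 and 2262 TPM in T. grandis. It fell by 2.04 ± 0.21 (SE; adjusted p = 3.97e-05, limma). In P. chienii it stood at 1645, 2011 and 2401 TPM, so A. argotaenia held the 3 lowest of the 9 libraries for both features.

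Counted over all 9 libraries, the 3 P. chienii libraries were the highest in 18 members and the lowest in 16. The 3 A. argotaenia libraries were the highest in 10 and the lowest in 15, and those of T. grandis the highest in 13 and the lowest in 19. Over all tested features the share with 1 species highest was 29.1% for P. chienii, 26% for A. argotaenia and 20% for T. grandis, and the share with it lowest was 12.6%, 4.78% and 5.65%. A feature found in a single species counts as highest there and can be no member, so the 2 sets of shares have different bases. By species mean, P. chienii was highest in 35 members, A. argotaenia in 31 and T. grandis in 24.

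All features listed in every library were a closer base than all tested features, and it was chosen after seeing the data. The ratio limit was not applied to these lower ranges. For P. chienii against A. argotaenia, 40% of the 7579 features with their lowest library between 1 and 10 TPM were called, 31.9% of the 3159 between 10 and 50 TPM and 28.9% of the 553 between 50 and 200 TPM, against 34.4% of the members. For P. chienii against T. grandis these shares were 39.1%, 30.4% and 29.7%, against 28.9%. For A. argotaenia against T. grandis they were 33.3%, 29.1% and 25.9%, against 23.3%. The members' share was above that of the next lower range for P. chienii against A. argotaenia and below it in the other comparisons, none of which was tested. In each range the share was below that over all tested features.

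**Figure D3:**
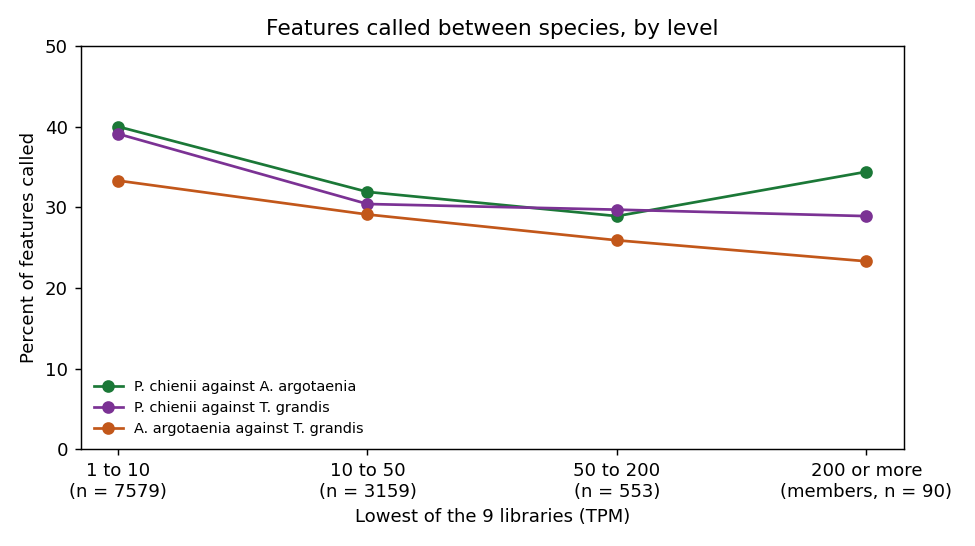
Percent of features called by limma in each comparison (lines) by the lowest of the 9 libraries in TPM (x axis, 4 ranges; a feature at a limit belongs to the higher range). The members, at the right, lie at 34.4%, 28.9% and 23.3%, of which the last is the lowest value of the plot. The highest value of the plot is 40%.

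What the rule did not read is the rest of each member's component. The 90 members came from 87 components with a median of 3 features and at most 9, and 13 members were the single feature of theirs. In 68 members the feature held at least 90% of its component in all 3 species. The median share was 99.6% in P. chienii, 99.5% in T. grandis and 99.1% in A. argotaenia, and the member held under 50% of its component in 7, 4 and 4 cases.

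A component sum contains the member, so a call on both is largely the same value counted again, and the cases that part are the informative ones. Of the 31 members called between P. chienii and A. argotaenia, 27 had a component sum called in the same direction, of 26 for P. chienii and T. grandis 22, and of 21 for A. argotaenia and T. grandis 18. Component sums were called in 53.7%, 48.4% and 42.3% of all 39423 tested components in the same order. Besides the members named above, TRINITY_DN49931_c0_g2 and TRINITY_DN51362_c0_g1, named after their values were seen, were among the called members whose component was not called, with component log2 fold changes of -0.98 and 0.83, just under 2-fold. TRINITY_DN43235_c0_g2 was the single called member whose component went the other way, against A. argotaenia from P. chienii and from T. grandis alike.

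In 3 components 2 features each were members, and their ratio within a library differed by species. In TRINITY_DN53707_c4 the ratio of TRINITY_DN53707_c4_g1 to TRINITY_DN53707_c4_g3 was 1.04, 1.02 and 1.09 in P. chienii. The A. argotaenia libraries gave 8.77, 15.6 and 11.6, and those of T. grandis 9.18, 9.36 and 9.09. Over the same P. chienii libraries the level of each of these features moved more than 2-fold, so both moved together. P. chienii did not overlap with the other species, and those 2 overlapped with each other.

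In TRINITY_DN39005_c0 the ratio of TRINITY_DN39005_c0_g2 to TRINITY_DN39005_c0_g1 was 2.89, 2.26 and 3.43 in P. chienii and 2.45, 2.25 and 2.76 in A. argotaenia, but 0.457, 0.335 and 0.352 in T. grandis. The leading feature of the component thus changed in T. grandis, while P. chienii had a component sum of 3238 ± 1082 TPM (SD, n = 3), A. argotaenia 3101 ± 1009 TPM and T. grandis 2178 ± 402 TPM. In TRINITY_DN52093_c0 the ratio of TRINITY_DN52093_c0_g2 to TRINITY_DN52093_c0_g3 was 1.46, 1.21 and 1.29 in P. chienii and 1.59, 1.36 and 1.33 in A. argotaenia, against 0.570, 0.545 and 0.708 in T. grandis. In both components T. grandis lay apart, with no overlap. A single ratio of 3 libraries against 3 cannot reach an exact permutation p under 0.10, and none was tested.

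**Figure D4:**
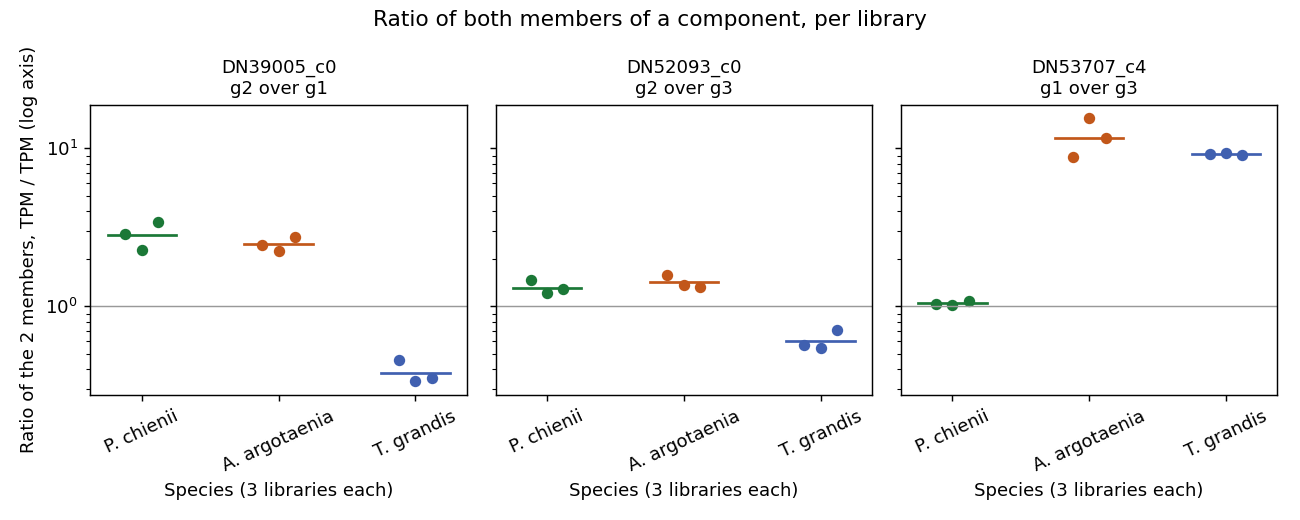
Ratio of the TPM of both members in each of the 3 components that hold 2 members (panels), per library (points, 3 per species, log axis), with the geometric mean of a species as a bar and equality as a grey line. P. chienii is apart in DN53707_c4, near 1 against 8.77 or more, and T. grandis is apart in the other panels, below 1.

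The spread of the members within species was set beside that of other features of that level, with no test of the difference. The median coefficient of variation over the 3 libraries was 14.9% in P. chienii, 11.3% in T. grandis and 15.6% in A. argotaenia. For other features that reached 200 TPM throughout the same species it was 12.6%, 11.3% and 16.8%. The highest library was at least 2 times the lowest in 14 members in P. chienii, 5 in T. grandis and 19 in A. argotaenia, which is 15.6%, 5.56% and 21.1% of them, against 9.97%, 5.09% and 15.4% of the other features. The share with a 2-fold range was thus higher among the members in P. chienii and A. argotaenia and close to that of the others in T. grandis. In A. argotaenia the median coefficient of variation was the lower among the members. The rule read these same values and its ratio limit was not applied to the other features, so nothing is read from the differences.

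The widest spread within a species was that of TRINITY_DN41577_c1_g1 in A. argotaenia. It stood at 2500 and 2068 TPM in replicates 1 and 3 and at 375 TPM in replicate 2. In P. chienii it was at 2772 TPM in replicate 1 against 947 and 803 TPM in the others, and T. grandis had 854, 1263 and 1057 TPM. The library that stood apart over all features was thus the low one in A. argotaenia and the high one in P. chienii. In P. chienii the widest was TRINITY_DN37808_c0_g1, at 237, 698 and 961 TPM, and in T. grandis TRINITY_DN36477_c0_g1, at 1814, 4025 and 1997 TPM. Neither is among the members named by rule for a difference between species. TRINITY_DN36477_c0_g1 was nevertheless called lower in P. chienii than in A. argotaenia, without overlap. Its log2 fold change was -1.54 ± 0.46 (SE; adjusted p = 0.0156, limma).

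Some members were high in the same libraries. In 11 members A. argotaenia replicate 1 was at least 1.5 times both other libraries of its species, in 6 members T. grandis replicate 2 was, and these 6 were all among the 11. They were TRINITY_DN35790_c0_g1, TRINITY_DN36477_c0_g1 and both members each of TRINITY_DN53707_c4 and TRINITY_DN52093_c0, chosen after their values were seen, and they therefore come from 4 components. P. chienii replicate 3 was the lowest of its species in all 6, and in 22 of the 90 members. Over the 90 members, the deviations of A. argotaenia replicate 1 and T. grandis replicate 2 from their species means on the log2 scale correlated at 0.656. This was the highest of the 27 pairs of libraries from different species, a description across members that share these libraries. Over all tested features the same pair of libraries correlated at 0.0810.

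These 6 members also differed in their part of all TPM. They held between 0.662% and 1.25% in P. chienii, between 1.05% and 2.19% in T. grandis and between 1.79% and 5.25% in A. argotaenia. The other members together held 9.41% ± 0.703 of the TPM (SD, n = 3) in P. chienii, with 7.80% ± 0.644 for T. grandis and 8.04% ± 0.944 for A. argotaenia. Since the 6 were chosen for being high in A. argotaenia replicate 1 and T. grandis replicate 2, their removal had to bring these libraries nearer to the others, and nothing is read from the smaller SD. The wide range of the 6 within these species follows from the same choice.

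**Figure D5:**
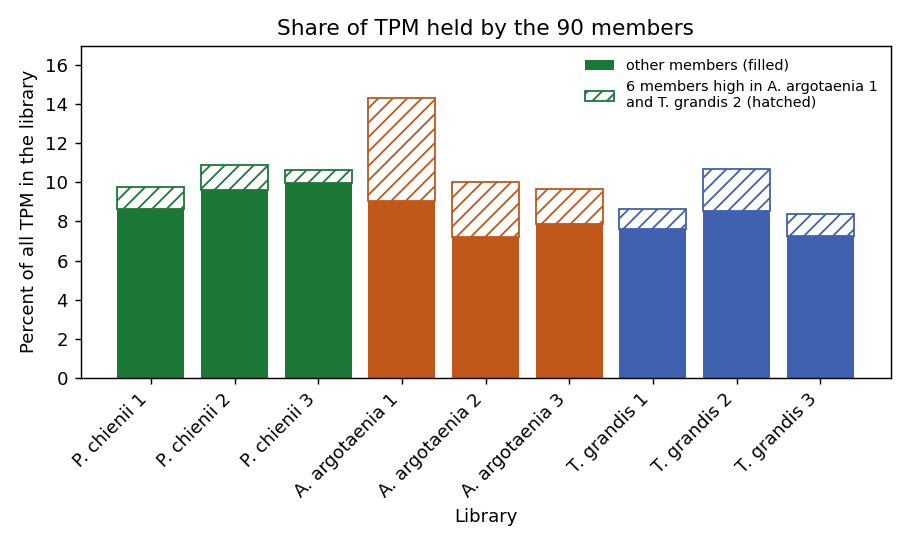
Percent of all TPM held by the 90 members in each library (bars from 0), with the 6 members that were high in A. argotaenia replicate 1 and T. grandis replicate 2 hatched and the other members filled. The total runs from 8.36% to 14.3%, and the hatched part from 0.662% to 5.25%.

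Over the members, Pearson's r between libraries of a species on the log2 scale lay between 0.854 and 0.974, and the lowest value, in P. chienii, was that of replicates 1 and 3. In A. argotaenia replicate 2 stood apart at the members too, at 0.888 and 0.914 against 0.936 for the others, while in T. grandis replicate 3 had 0.974 and 0.970 against 0.965. Over all tested features the deviations of the 3 libraries that stood apart correlated with each other at 0.298, 0.398 and 0.328, and over the members at -0.262, -0.0317 and 0.331. Without these libraries 26 members were called for P. chienii against A. argotaenia, 27 for P. chienii against T. grandis and 23 for A. argotaenia against T. grandis. Of all 75926 tested features, 47578, 41909 and 36448 were called in the same order.

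In the members, the lowest species mean was a median of 47.5% of the highest, at least 50% in 38 members and under 20% in 3. The lowest value was 6.80%, for TRINITY_DN43235_c0_g2 in A. argotaenia. The part of reads assigned across species in these levels was not tested.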

How the data were processed

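The authors deposited 1 table per library; the unit was read from the values as TPM, since the deposited headers name none. Trinity is named per the labels; for the quantifier, its version and any filter, nothing is stated in the labels. Depth is unknown, so no counting interval was computed.

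The 9 tables were joined, and the rule was applied in Python 3.11.15 (pandas 2.3.3, numpy 2.4.6, scipy 1.17.1; figures with matplotlib 3.10.9). Species were compared on log2(TPM + 1) by limma 3.58.1 (R 4.3.3, intensity trend), with species as the only term and all 9 libraries. The fit held the 75926 features that reached 1 TPM in 3 or more libraries. Tests were two-sided, with Benjamini-Hochberg adjustment. The fit was run on simulated data with independent noise, with calls by adjusted p alone. The fold limit of the reported calls was not part of that check. Component sums were fitted likewise over 39423 components. A fold change refers to log2(TPM + 1).

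The members and lists were chosen with earlier results of these data known. Features are named by rule: the 3 highest means, per comparison the 2 largest called rises and falls without overlap, those at the limits, the widest spread per species and the largest rank change per comparison. Alternatives were no filter, a filter on a mean of 5 TPM, pseudocounts of 0.1 and 5, trimmed-mean scaling (over features that reached 1 TPM everywhere, with a share of 0.3 trimmed at each end), quantile normalization, no trend, only the species compared, the replicate block, no minimum fold, component sums, left-out libraries with the tested features kept, and member limits of 150 or 300 TPM and a ratio of 2 or none. Leaving out the libraries that stood apart, and the level ranges, were added after seeing the data.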

Additional observations from a re-analysis of the deposited data

How the results depend on the processing

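The total counts of called members, with both directions together, stayed within 1.5 times under all alternatives except 1. With no minimum fold 53, 52 and 48 members were called for P. chienii against A. argotaenia, P. chienii against T. grandis and A. argotaenia against T. grandis. Calls over all tested features were not counted for this setting. Single directions moved more. Members lower in P. chienii than in A. argotaenia went from 16 to 8 with only the species compared. Those lower than in T. grandis went from 5 to 8 with trimmed-mean scaling and to 10 with quantile normalization. Leaving out 1 library gave 28 to 33, 25 to 29 and 19 to 22. Whether the replicate numbers pair the libraries cannot be told from 3 libraries per species. Same-numbered libraries had correlations of deviations from -0.293 to 0.188 over all tested features and from -0.427 to 0.396 over the members. With the replicate block 32, 26 and 22 were called, against 47468, 42490 and 35954 of all 75926 tested features. A limit of 300 TPM left 57 members, and the rule on 8 libraries gave 89 to 95. The share of TPM was 12.0% and 8.18% with limits of 150 and 300 TPM in P. chienii, and 11.3% and 7.78% in T. grandis. The correlation of A. argotaenia and T. grandis was 0.710 by Pearson on log2 means. Of 12 named results under 240 alternatives, 231 kept direction and call, 8 lost the call, and TRINITY_DN43235_c0_g2 for P. chienii against A. argotaenia turned to -1.42 as a component sum, since TRINITY_DN43235_c0_g3 of that component held the A. argotaenia level.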
